A study of Mus musculus with 2 samples.

Results

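The 42 genes described here encode nucleolar proteins and factors that build ribosomes. They were chosen by symbol, and all 42 symbols were found among the 32285 genes counted. Their level and their variation from cell to cell were described in E14 mouse embryonic stem cells of 129/Ola background, grown in serum with leukaemia inhibitory factor. Lipofectamine 2000 carried a control small interfering RNA (siRNA) into one group, called control, and an siRNA against Son into the other, called sonKD. Son encodes an RNA-binding protein of nuclear speckles that takes part in splicing. Both groups were harvested 24 h after transfection, frozen, thawed, sorted to exclude dead cells with the dye 7-AAD, and processed by 10x Genomics Chromium 3′ v3 chemistry. Each group was 1 library, so no difference has a replicate check, and an effect of the knockdown and a difference between 2 libraries cannot be told apart.

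Ribosomes are assembled in the nucleolus around RNA that RNA polymerase I transcribes from the ribosomal DNA repeats. Small nucleolar ribonucleoproteins (snoRNPs) of the box C/D and box H/ACA classes modify that RNA, the small subunit (SSU) processome folds and cuts its 5′ part, and a separate set of factors assembles the large subunit. Pluripotent stem cells have prominent nucleoli, and these genes are known as part of the growth programme of dividing cells.

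A cell was a barcode with at least 2500 UMIs, at least 1000 genes and at most 10% of its UMIs from mitochondrial genes (unique molecular identifiers, each tagging a single transcript molecule). That left 4978 cells in control and 2731 in sonKD, with a median of 7737.5 and 11612 UMIs per cell. The mitochondrial limit had removed 11.2% of the control and 27.9% of the sonKD barcodes that passed both minimums. The 2 libraries shared 2 cell barcodes. Levels are in CPM, UMI counts scaled to a common total per library. Son measured 169 CPM (95% Poisson interval 165 to 173) in control against 106 CPM (102 to 109) in sonKD, a log2 ratio of -0.67. The 10 pluripotency markers summed to 8697 and 9439 CPM. The markers of primitive endoderm, trophectoderm, mesoderm, neuroectoderm, fibroblasts and 2C-like cells each summed to at most 15.4 CPM in either library.

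Together the 42 genes gave 18011 CPM (17970 to 18052) in control and 17125 CPM (17079 to 17170) in sonKD, or 1.80% and 1.71% of all UMIs. The log2 ratio of these sums, sonKD over control, was -0.07 (-0.08 to -0.07). It became 0.02 with TMM factors, 0.04 when the median gene was set to 0, and -0.00088 when mitochondrial and ribosomal protein genes were left out of the total. The direction of the summed level therefore depended on the scaling. Ribosomal protein genes took 20.5% of the UMIs in control and 23.8% in sonKD. All intervals here are at 95% and cover counting error only.

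Each of the 42 genes had a mean of at least 10 CPM, the minimum for a ratio. Their median log2 ratio was -0.09, beside -0.12 over all 8063 genes at that minimum. Of the 42, 30 had a ratio below 0 and 12 above, beside 6039 and 2024 of all 8063 genes. The 30 and 12 became 21 and 21 with TMM factors and 19 and 23 with the median gene set to 0. Without mitochondrial and ribosomal protein genes they became 25 and 17. The split of all genes by sign is not set beside the counts under these scalings. None of these counts is a result about the set. The ratios ran from -0.54 for Npm3 to 0.63 for Gar1. A gene was counted as higher or lower from a fold of 1.2, or 0.26 on the log2 scale. By that fold 5 of the 42 were lower in sonKD, or 11.9%, beside 17.6% of all genes. On the other side 2 of the 42 were higher, or 4.76%, beside 4.65% of all genes. Both shares lay near or under those of all genes, so neither count is a result about the set. With the median gene set to 0, 3 were lower and 4 higher, beside 5.99% and 9.34% of all genes. With TMM factors 4 were lower and 4 higher, beside 7.55% and 7.90%.

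**Figure D1:**
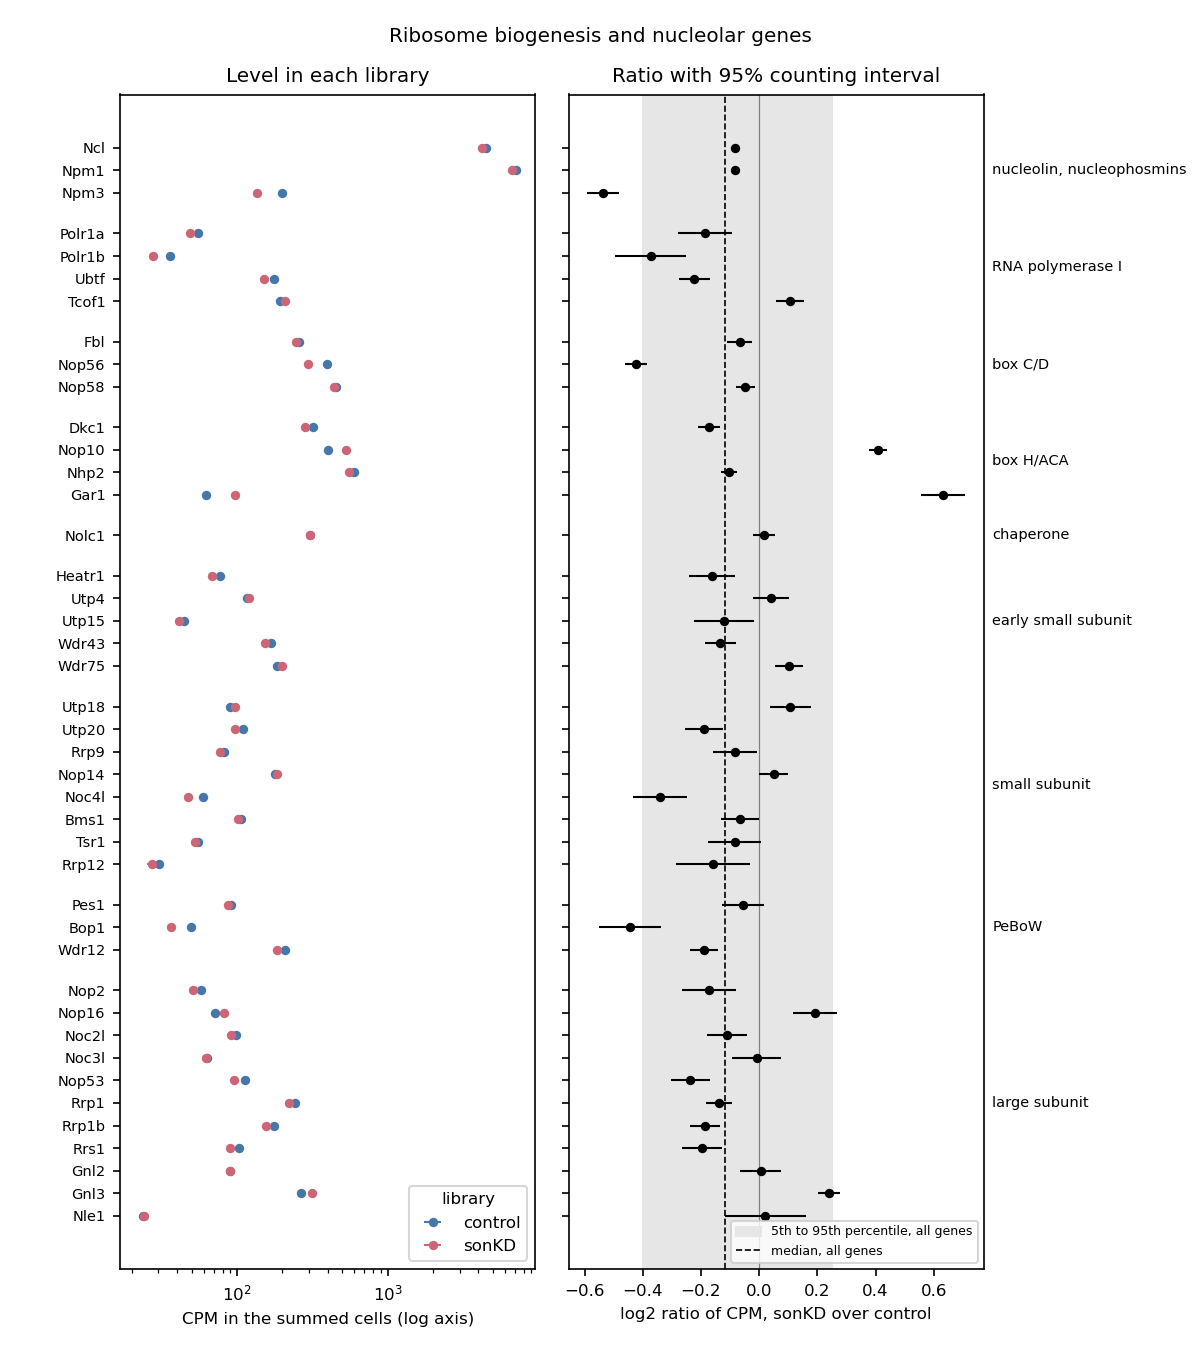
Level of each of the 42 genes in the 2 libraries (left, CPM on a log axis) and the log2 ratio of CPM, sonKD over control (right, lines are 95% counting intervals), grouped by role. The dashed line marks the median of all 8063 genes at -0.12 and the grey band their 5th to 95th percentiles; Npm3, Bop1, Nop56, Gar1 and Nop10 lie outside the band.

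**Figure D2:**
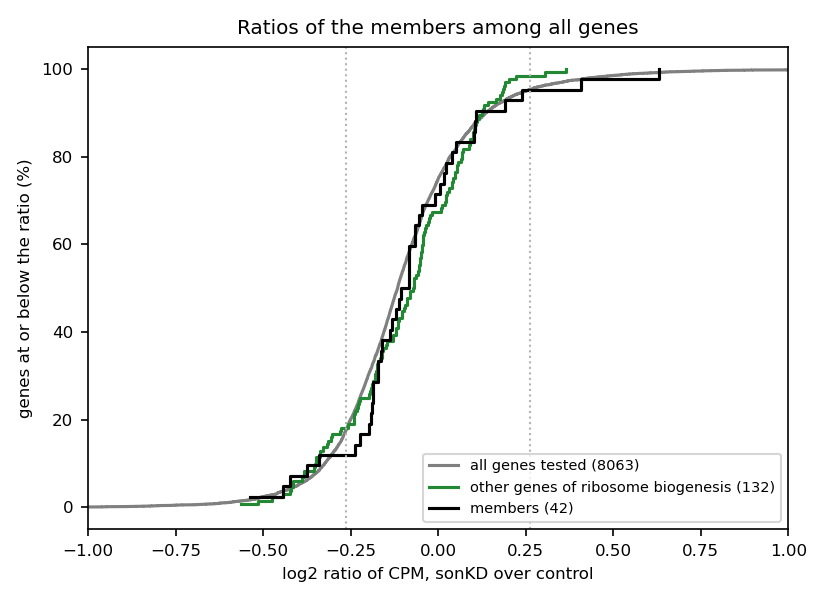
Cumulative share of genes (%) by log2 ratio of CPM, sonKD over control, for all 8063 genes, the 132 other genes of ribosome biogenesis and the 42 genes described here. Dotted lines mark the fold of 1.2; the curve of the 42 genes runs close to that of all genes, with 5 genes below the lower line and 2 above the upper one.

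The promoters of 4 genes are shown because later results turn on them. Ncl and Nolc1 were among the 3 pairs with the highest correlation across cells, and Gar1 and Nop10 had the highest ratios. Each run covers 250 bases before to 50 bases after the gene's start, 5′ to 3′ on the gene's strand, from RefSeq on GRCm38.p6, with any match to CCGGAAG or its reverse complement CTTCCGG (the core bound by ETS factors) in capitals.
Ncl, chr1:86359406-86359705, minus strand: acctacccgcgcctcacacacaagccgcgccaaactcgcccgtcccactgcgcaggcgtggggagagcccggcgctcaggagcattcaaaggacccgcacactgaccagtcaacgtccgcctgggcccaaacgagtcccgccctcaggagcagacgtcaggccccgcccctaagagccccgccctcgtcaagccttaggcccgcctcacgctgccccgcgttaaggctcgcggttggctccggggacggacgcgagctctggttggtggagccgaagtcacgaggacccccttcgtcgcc
Nolc1, chr19:46075597-46075896, plus strand: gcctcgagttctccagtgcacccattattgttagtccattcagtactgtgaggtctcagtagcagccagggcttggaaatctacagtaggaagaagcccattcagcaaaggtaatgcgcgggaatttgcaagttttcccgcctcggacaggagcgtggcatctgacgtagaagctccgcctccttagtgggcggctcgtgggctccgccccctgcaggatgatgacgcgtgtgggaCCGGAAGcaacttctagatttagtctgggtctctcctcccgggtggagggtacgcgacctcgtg
Gar1, chr3:129831347-129831646, minus strand: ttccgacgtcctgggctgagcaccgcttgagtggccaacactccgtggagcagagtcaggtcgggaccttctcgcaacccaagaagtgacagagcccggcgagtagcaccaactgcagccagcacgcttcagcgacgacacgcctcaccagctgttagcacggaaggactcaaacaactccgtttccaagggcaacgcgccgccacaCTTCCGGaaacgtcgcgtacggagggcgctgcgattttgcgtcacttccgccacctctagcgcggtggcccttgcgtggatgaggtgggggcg
Nop10, chr2:112261676-112261975, plus strand: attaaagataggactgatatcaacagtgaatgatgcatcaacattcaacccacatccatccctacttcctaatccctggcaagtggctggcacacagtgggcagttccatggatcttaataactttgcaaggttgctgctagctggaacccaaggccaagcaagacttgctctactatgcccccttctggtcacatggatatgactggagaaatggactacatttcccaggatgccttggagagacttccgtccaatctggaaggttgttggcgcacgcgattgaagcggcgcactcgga

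Of the 42 genes, 34 were matched by symbol to a promoter in that table. A gene with several promoters counted if any of them held the motif. CCGGAAG, read on both strands, lay in 11 of the 34 (32.4%), beside 24.7% of the 6471 matched genes at the CPM minimum and 9.93% of all 27025 genes with a promoter. The E-box CACGTG, the sequence that MYC binds with MAX and the same on both strands, lay in 8 of the 34 (23.5%), beside 13.0% and 8.09%. Those 8 genes were Nle1, Nop2, Pes1, Tsr1, Utp18, Utp20, Utp4 and Wdr43, and their log2 ratios lay between -0.19 (Utp20) and 0.11 (Utp18). None of the 4 promoters printed above holds the E-box. The GC content of those of Ncl, Gar1, Nolc1 and Nop10 was 69.3%, 63.0%, 57.0% and 49.3%. Neither motif overlaps the other, and a match describes the letters only. The transcripts of Myc, at 10.3 CPM in control against 9.96 CPM in sonKD, and of Mycn, at 14.9 and 14.7 CPM, had intervals of the ratio that reach 0.

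Ncl and Npm1 carried most of the signal. Nucleolin (Ncl, chr1:86344719-86359400, minus strand, 14 exons) binds precursor ribosomal RNA, and nucleophosmin (Npm1, chr11:33152287-33163206, minus strand) is the abundant histone-binding and ribosome-assembly chaperone of the outer nucleolus. Npm1 stood at 7133 CPM (7107 to 7159) in control and 6732 CPM (6704 to 6761) in sonKD, and Ncl at 4481 CPM (4461 to 4502) and 4228 CPM (4206 to 4251). Both had a log2 ratio of -0.08, which turned to between 0.01 and 0.03 with TMM factors or with the median gene set to 0. They made up 64.5% of the UMIs of the 42 genes in control and 64.0% in sonKD. UMIs are counted at the 3′ end of a transcript, so these levels are not scaled by gene length. The principal transcript of Npm1 shares none of the 3′ end examined with other transcripts, but another coding transcript of the gene shares 79.2%. The counts of Npm1 are uncertain to that extent. The other 40 genes summed to 6397 and 6164 CPM, a log2 ratio of -0.05 (-0.06 to -0.05).

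Npm3 was the lowest of the 42 in sonKD relative to control. It encodes a nucleophosmin-family histone chaperone (chr19:45747734-45749591, minus strand, 6 exons). It stood at 198 CPM (194 to 202) in control and 137 CPM (132 to 141) in sonKD, a log2 ratio of -0.54 (-0.59 to -0.48) that ranked 136 from the lowest of 8063. In cells thinned to 4000 UMIs it was detected in 54.0% of control and 41.8% of sonKD cells (75.6% and 73.7% without thinning). Of the last 500 bases of its transcript, 35.0% was nearly identical to another transcript on the same strand, and an antisense gene, Gm15491, overlaps it, so its counts are uncertain to that extent. No cell type that lacks these genes was in the cultures, so a background for such shares could not be taken from one. In droplets of 100 to 500 UMIs, which mostly hold free RNA, the 42 genes summed to 18014 CPM in control and 15638 CPM in sonKD, beside 18011 and 17125 CPM in cells. The part of free RNA in the detection shares was not tested.

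The 4 genes of RNA polymerase I transcription had a median log2 ratio of -0.20. Polr1a, the catalytic subunit, stood at 55.1 CPM in control against 48.4 CPM in sonKD (-0.19). Polr1b, the second-largest subunit (chr2:129100995-129126594, plus strand), stood at 36.0 CPM (34.2 to 37.9) and 27.8 CPM (26.0 to 29.7), a log2 ratio of -0.37 (-0.49 to -0.25). Ubtf, which opens ribosomal DNA chromatin for transcription, stood at 176 and 151 CPM (-0.22), inside the fold of 1.2. Tcof1, the treacle protein that joins polymerase I transcription to RNA processing, had the opposite sign, with 192 CPM in control and 207 CPM in sonKD (0.11). Polr1b was the only one of the 4 past the fold, its ratio was -0.257 with the median gene set to 0, inside the fold of 0.263, and its principal transcript shares 63.0% of its last 500 bases with other transcripts.

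The 2 classes of snoRNP differed in sign. The box C/D core (Fbl, Nop56 and Nop58), which carries out 2′-O-methylation, summed to 1109 CPM in control and 982 CPM in sonKD, a log2 ratio of -0.18 (-0.20 to -0.15). The box H/ACA core (Dkc1, Nop10, Nhp2 and Gar1), which makes pseudouridine, summed to 1375 and 1462 CPM, a log2 ratio of 0.09 (0.07 to 0.11). Both signs held under each scaling. Each sum hides unequal members, Nop56 in the first class and Gar1 and Nop10 in the second. In the second class Dkc1 and Nhp2 were below 0 (-0.17 and -0.10). The principal transcripts of Fbl and Nop56 share 77.2% and 81.4% of the 3′ end examined with other transcripts. That of Nop58 shares none, but another coding transcript of the gene shares 21%. Of the box H/ACA genes only Dkc1 has such sequence, at 28.8%. The part of shared sequence in the signs of the 2 classes was not tested.

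Nop56, a scaffold protein of the box C/D particle, lay at chr2:130274430-130279313 on the plus strand and hosts 5 snoRNA genes. It stood at 396 CPM (390 to 402) in control and 295 CPM (289 to 301) in sonKD, a log2 ratio of -0.42 (-0.46 to -0.39). It was detected in 75.1% of thinned control cells and 64.3% of thinned sonKD cells (89.6% and 89.1% without thinning). Nop58, with which it forms a pair in the particle, stood at 454 and 440 CPM (-0.05), and the methyltransferase fibrillarin (Fbl) at 259 and 247 CPM (-0.07). The signs of these latter ratios flipped with TMM factors, with the median gene set to 0 and with mitochondrial and ribosomal protein genes left out. The principal transcript of Nop56 shares 81.4% of its last 500 bases with other transcripts on the same strand, and Idh3b overlaps it on the other strand, so reads of Nop56 may be split or shared.

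Gar1 and Nop10 were the only 2 of the 42 genes past the fold on the higher side on the CPM scale. Gar1 (chr3:129824912-129831396, minus strand, 7 exons) encodes the box H/ACA protein that helps release the modified RNA. It stood at 62.1 CPM (59.7 to 64.6) in control and 96.2 CPM (92.9 to 99.7) in sonKD, a log2 ratio of 0.63 (0.56 to 0.71), at the 99.2nd percentile of all genes. Nop10 (chr2:112261926-112263269, plus strand, 2 exons) is the small protein that binds the enzyme dyskerin. It stood at 399 CPM (393 to 405) and 530 CPM (522 to 538), a log2 ratio of 0.41 (0.38 to 0.44), at the 97.6th percentile. Neither gene overlaps another gene or shares its 3′ end with another transcript. Gar1 was detected in 20.98% of thinned control and 30.1% of thinned sonKD cells (38.4% and 63.2% without thinning), and Nop10 in 77.9% and 85.5% (91.98% and 97.4%).

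The other box H/ACA proteins did not share that direction. The pseudouridine synthase dyskerin (Dkc1) stood at 318 CPM in control against 283 CPM in sonKD (-0.17), and Nhp2, which binds the RNA, at 595 and 553 CPM (-0.10, or 0.01 with the median gene set to 0). Nolc1, the chaperone of both snoRNP classes, stood at 303 CPM (297 to 308) and 306 CPM (300 to 312), and the interval of its log2 ratio of 0.02 reached from -0.02 to 0.05.

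The 13 genes of the SSU processome ran from -0.34 (Noc4l) to 0.11 (Utp18), and 1 of them was past the fold. The 5 early-binding proteins (Heatr1, Utp4, Utp15, Wdr43 and Wdr75), which join transcription to processing, had ratios between -0.16 (Heatr1) and 0.10 (Wdr75), and none was past the fold. Of the other 8, Noc4l, the partner of Nop14, was past it, with 59.5 CPM (57.2 to 61.9) in control and 47.0 CPM (44.7 to 49.5) in sonKD, a log2 ratio of -0.34 (-0.43 to -0.25). Its ratio was -0.22 with the median gene set to 0, inside the fold. Nop14 itself was at 178 and 184 CPM (0.05). Utp20, at 110 and 96.7 CPM (-0.19), and Utp18, at 89.3 and 96.2 CPM (0.11), marked the ends of the remaining range. Rrp9, which binds the U3 snoRNA, the GTPase Bms1, Tsr1 and Rrp12 lay between -0.16 and -0.07.

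In the PeBoW complex, which acts on the large-subunit precursor, the 3 subunits differed. Bop1 (chr15:76452989-76477277, minus strand, 16 exons) stood at 49.5 CPM (47.4 to 51.7) in control and 36.4 CPM (34.3 to 38.6) in sonKD, a log2 ratio of -0.44 (-0.55 to -0.34). Its gene overlaps Mroh1 and Scx on the other strand. Wdr12 was at 208 and 183 CPM (-0.19) and Pes1 at 90.9 and 87.5 CPM (-0.06, or 0.06 with the median gene set to 0). The principal transcript of Wdr12 shares 100% of the 3′ end examined with other transcripts, but another coding transcript of the gene shares none. Wdr12 also overlaps Carf on the other strand, so its counts are uncertain to that extent.

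None of the 11 other large-subunit factors was past the fold. Gnl3, or nucleostemin, the nucleolar GTPase known from stem cells, came nearest on the higher side, with 267 CPM (262 to 272) in control and 315 CPM (309 to 321) in sonKD, a log2 ratio of 0.24 (0.20 to 0.28). Its gene overlaps Pbrm1 on the other strand. Nop16 followed, with 71.7 CPM (69.1 to 74.3) and 81.9 CPM (78.8 to 85.1), a ratio of 0.19. Both passed the fold with TMM factors, with the median gene set to 0, and with mitochondrial and ribosomal protein genes left out. Nop53, which recruits the exosome, was the lowest, with 113 CPM (109 to 116) and 95.5 CPM (92.2 to 99.0), a ratio of -0.24. Rrs1 (-0.20), Rrp1b (-0.19), the methyltransferase Nop2 (-0.17), Rrp1 (-0.14) and Noc2l (-0.11) were below 0, while Noc3l (-0.01), the GTPase Gnl2 (0.01) and Nle1 (0.02) lay near it.

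Several properties that played no role in the choice of genes were set beside the ratios. Of the 42 genes, 8 host snoRNA genes in their bodies (Ncl, Nop56, Nop58, Dkc1, Wdr43, Tsr1, Nop53 and Gnl3), beside 1.25% of 21702 protein-coding genes in GENCODE M21. Their median log2 ratio was -0.11, that of the other 34 was -0.09, and that of the 202 host genes at the CPM minimum was -0.14. Spearman's rho of the ratio with the number of exons, taken across genes that are not independent of each other, was -0.07 over the 42 and -0.29 over all 8063. With gene length it was -0.01 and -0.17, and with transcript length -0.24 and -0.29. The 32 genes without shared 3′ sequence in any coding transcript had a median of -0.08, with 2 lower and 2 higher, and the 10 with such sequence had a median of -0.18, with 3 lower and none higher. Of the 42 genes, 18 overlap a gene on the other strand, and whether the counting used strand is not given in the sources used here. The part of shared or overlapping sequence in the ratios was not tested.

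A wider list of 134 other ribosome-biogenesis genes, 132 of them at the CPM minimum, gave a median of -0.07, with 24 lower (18.2%) and 2 higher (1.52%), beside 17.6% and 4.65% of all genes. The split depended on the scaling. With TMM factors 12 were lower and 9 higher, beside 7.55% and 7.90% of all genes. With the median gene set to 0, 11 were lower and 10 higher, beside 5.99% and 9.34%. Without mitochondrial and ribosomal protein genes 17 were lower and 4 higher, beside 8.97% and 7.21%. The counts by step that follow are on the CPM scale only and are read against the same 17.6% and 4.65%. Among them, 8 of 30 SSU factors were lower and 1 higher, and the genes farthest from the median of all genes were Rcl1 (48.1 and 59.5 CPM, 0.31) and Wdr46 (48.9 and 36.4 CPM, -0.42). Of 36 large-subunit factors 8 were lower and 1 higher, with the helicases Ddx18 (181 and 233 CPM, 0.36) and Ddx56 (47.7 and 32.3 CPM, -0.56) farthest. The 14 further polymerase I genes held 2 lower and none higher, Mybbp1a at 227 and 170 CPM (-0.41) and Rrn3 (-0.32, named after its value was seen). Znrd1, at 157 and 179 CPM (0.19), was inside the fold.

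In the late steps no gene was past the fold on the higher side. Of 11 factors of the late small subunit 2 were lower, Tsr3 at 54.4 and 40.02 CPM (-0.44) and Tsr2 (-0.31), while Nob1 stood at 64.1 and 70.8 CPM (0.14). Of 8 factors of the late large subunit 2 were lower, the exportin Xpo1 at 149 and 117 CPM (-0.35) and Efl1 (-0.28), while the adaptor Nmd3 stood at 91.5 and 100.2 CPM (0.13). Of 22 exosome and RNase genes 2 were lower, Exosc5 (-0.38) and Pop5 (-0.34). The 2 genes of that list farthest from the median of all genes, Rpp21 (0.19) and Exosc3 (0.18), were inside the fold. Tsr2, Efl1, Exosc5 and Pop5 are named after their values were seen. None of 11 snoRNP assembly genes passed the fold, with Coil at 0.10 and Smn1 at 0.09. Of the 4 MYC-network genes at the minimum 1 was lower, Mga (-0.28), and Max was at 0.11.

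The genes of the ribosomal proteins themselves had higher ratios. Of 77, 45 were higher (58.4%, beside 4.65% of all genes) and 3 were lower (3.90%, beside 17.6%), and their median log2 ratio was 0.35, beside -0.09 for the 42 genes and -0.12 for all genes. Ribosomal protein genes took a larger share of the UMIs in droplets of 100 to 500 UMIs than in cells, 32.7% in control and 37.5% in sonKD. Many of these genes have processed copies elsewhere in the genome, which makes their counts uncertain. The part of free RNA in their ratios was not tested. Nucleolar stress is known to act through p53. Of 18 p53 targets at the minimum 1 was lower and 4 were higher, beside 17.6% and 4.65% of all genes. Their median was 0.05, with Perp (36.0 and 49.8 CPM, 0.47) and Rps27l (696 and 934 CPM, 0.42) farthest from the median of all genes. The other genes past the fold, named after their values were seen, were Aen (0.28) and Btg2 (0.27) on the higher side and Sesn2 (-0.35) on the lower. Trp53 itself stood at 307 and 329 CPM (0.10), Mdm2 at 141 and 128 CPM (-0.14) and Cdkn1a at 50.9 and 48.7 CPM (-0.06, interval -0.16 to 0.03).

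For variation between cells, each cell was thinned to 4000 UMIs, which left out 268 control and 109 sonKD cells below that depth. A thinned control cell held on average 71.4 UMIs of the 42 genes (SD over 4710 cells 14.8, median 72, range 19 to 123). A thinned sonKD cell held 67.3 (SD over 2622 cells 15.0, median 68, range 19 to 116). The 2 distributions overlapped over nearly their whole range. The variance was 3.13 times that of sampling alone in control and 3.41 times in sonKD, which left a coefficient of variation of 17.1% and 18.8% beyond sampling. Without Ncl and Npm1 it was 13.7% and 15.0%. A typical cell had a UMI of 18 of the 42 genes in either library (5th to 95th percentile 13 to 23 in control and 12 to 23 in sonKD).

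**Figure D3:**
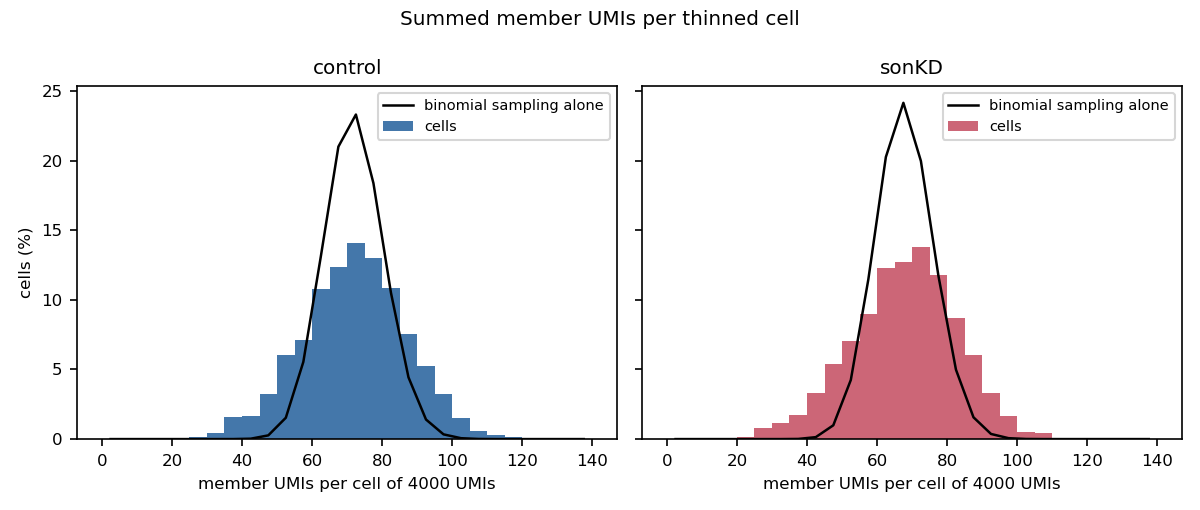
Share of cells (%) by the number of UMIs from the 42 genes in a cell thinned to 4000 UMIs, control on the left and sonKD on the right; the black line is binomial sampling alone. Both histograms are wider than the line, with a median of 72 UMIs in control and 68 in sonKD.

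Across cells the correlations between the genes were low, and the highest lay in a few pairs. For the 33 genes averaging at least 0.2 UMI per thinned cell, in control as well as in sonKD, the mean Pearson r over 528 pairs was 0.016 in control and 0.018 in sonKD. Over all 4489506 pairs of 2997 genes at that minimum it was 0.00068 and 0.0012. The cells share a library and a depth, and values this low in sparse counts are given as a description only. Of the 528 pairs, 395 in control were above 0 (74.8%, beside 50.9% of all gene pairs). In sonKD 380 were above 0 (72.0%, beside 51.7%). In both libraries 307 (58.1%) were above 0, with no share of all gene pairs set beside it. Pairs above the 95th percentile of all gene pairs numbered 46 (8.71%) in control and 78 (14.8%) in sonKD. Left out as too sparse were Polr1a, Polr1b, Utp15, Noc4l, Tsr1, Rrp12, Bop1, Nop2 and Nle1.

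Ncl and Npm1 formed the pair with the highest r in both libraries, 0.32 in control and 0.37 in sonKD. A thinned control cell held 17.8 ± 6.39 Ncl UMIs (SD over 4710 cells, range 1 to 43) and 28.4 ± 8.06 Npm1 UMIs (2 to 60). A thinned sonKD cell held 16.4 ± 6.41 (SD over 2622 cells, 0 to 43) and 26.7 ± 7.81 (1 to 58). Nolc1 ranked next with either gene, with r of 0.15 and 0.19 for Npm1 and Nolc1 and of 0.14 and 0.18 for Ncl and Nolc1. All of the 10 highest pairs in control held Ncl or Npm1, and 7 of these 10 were among the 10 highest in sonKD. The remaining 7 were Ncl with Wdr12 (0.12 in control and 0.09 in sonKD), Npm1 with Nhp2 (0.12 and 0.16), Ncl with Wdr75 (0.12 and 0.12), Npm1 with Tcof1 (0.12 and 0.08), Npm1 with Nop56 (0.10 and 0.07), Ncl with Tcof1 (0.09 and 0.13) and Ncl with Nop58 (0.09 and 0.10). Ncl and Npm1 also had by far the highest counts, the next being Nhp2 with 2.41 UMIs per thinned cell in control and 2.20 in sonKD. Sampling lowers r more at low counts, and the part of level in these ranks was not tested. Of the genes in these pairs, Npm1, Wdr12, Nop56 and Nop58 have shared 3′ sequence in a coding transcript, and its part was not tested either.

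The r of Ncl with Npm1 was largest in the shallowest cells. Within each library, cells were put into 5 equal bins by depth before thinning. From shallow to deep the r was 0.43, 0.30, 0.23, 0.27 and 0.20 in control and 0.51, 0.33, 0.30, 0.32 and 0.15 in sonKD. In cells with at most 5% mitochondrial UMIs it was 0.23 and 0.24. Within cells called S phase it was 0.30 and 0.34. Without Ncl and Npm1 the mean r over pairs of the other 31 genes was 0.011 in control and 0.012 in sonKD. The summed Ncl and Npm1 UMIs had an r of 0.31 and 0.34 with the summed UMIs of the other 40 genes. At the low end, Utp20 had an r of -0.05 with Npm1 in control and -0.06 in sonKD.

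**Figure D4:**
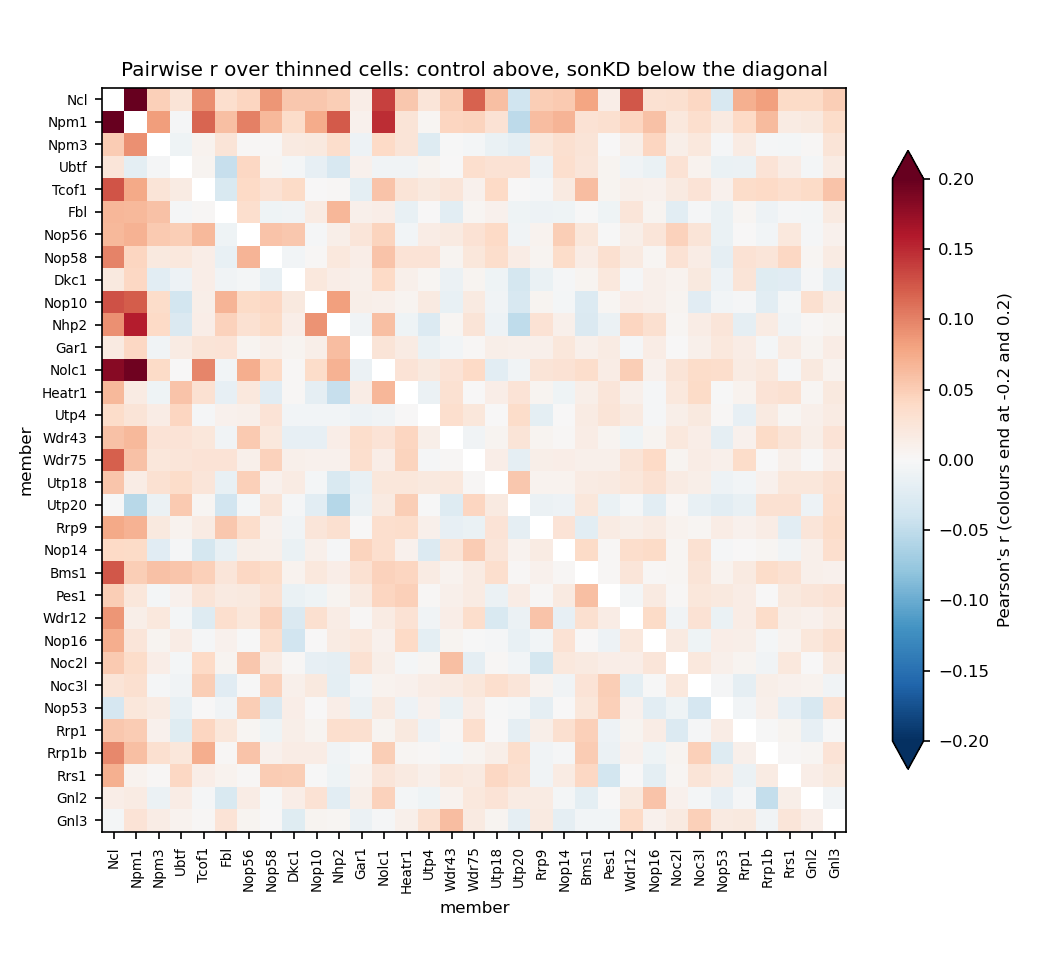
Pearson's r across thinned cells for each pair of the 33 genes, with control above and sonKD below the diagonal; colours end at -0.2 and 0.2. The rows of Ncl and Npm1 hold the strongest red, with 0.32 in control and 0.37 in sonKD for the 2 together, and most other cells of the map are near 0.

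Genes outside the 42 were ranked by r with the summed UMIs of the 42 genes, over 2964 genes at the same minimum. The highest in both libraries was Hspd1, the mitochondrial chaperonin HSP60, with r of 0.40 in control and 0.43 in sonKD. The histone variant H2afz (0.33 and 0.40), Ptma (0.30 and 0.35) and Set (0.29 and 0.32) came next, in the same order in both. Then followed Anp32b (0.28 and 0.29), the chaperonin subunit Cct6a (0.25 and 0.25), the histone chaperone Nasp (0.24 and 0.29), Cacybp (0.24 and 0.31), the actin Actg1 (0.23 and 0.26) and Nap1l1 (0.22 and 0.21). Of these 10, 8 were among the first 10 in sonKD and all were among the first 25. Ncl and Npm1 hold most UMIs of the 42 genes. Against the sum without these 2, which has fewer UMIs, the r of all 10 was lower. It ran from 0.10 (Nap1l1) to 0.22 (Hspd1) in control and from 0.10 to 0.27 in sonKD for the same genes. The lowest r with the sum of all 42 belonged to mitochondrially encoded transcripts, chosen here after their values were seen. For mt-Co3 it was -0.43 and -0.48, or -0.24 and -0.31 without Ncl and Npm1.

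Summed gene lists were correlated with the summed 42 genes in the same way. The 134 other ribosome-biogenesis genes had an r of 0.42 in control and 0.47 in sonKD with the summed 42 genes. The S phase list had 0.30 and 0.41, and the G2/M list -0.00 and 0.14. Mitochondrial genes had -0.39 and -0.46, or -0.25 and -0.26 in cells with at most 5% mitochondrial UMIs. The p53 targets had -0.29 and -0.35, or -0.19 and -0.22 in those cells. Ribosomal protein genes had -0.05 and -0.14, and Son itself -0.02 and 0.05. Against the sum without Ncl and Npm1, r was 0.34 and 0.37 for the other ribosome-biogenesis genes and 0.20 and 0.27 for the S phase list. It was -0.21 and -0.28 for mitochondrial genes and -0.14 and -0.19 for the p53 targets. Ribosomal protein genes lay farther from 0 against that sum, at -0.14 and -0.24. Because the thinned total of each cell is fixed, a larger share of 1 set of transcripts lowers that of the others.

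The summed level varied with depth. From the shallowest to the deepest of the 5 depth bins it was 1.60%, 1.78%, 1.84%, 1.87% and 1.84% of thinned UMIs in control and 1.43%, 1.68%, 1.74%, 1.77% and 1.79% in sonKD. The bins were cut within each library, so the same bin is not the same depth in both. Before thinning, the shallowest had a median of 5538.5 UMIs in control and 7579 in sonKD, and the deepest 11918.5 and 16817.5. In log2 terms the deepest depth bin was 0.20 (0.18 to 0.21) above the shallowest in control and 0.32 (0.30 to 0.34) in sonKD. The mitochondrial share moved with it, from 4.55% in the shallowest to 3.64% in the deepest depth bin of control and from 5.52% to 3.89% in sonKD. In cells with at most 5% mitochondrial UMIs the differences were 0.13 and 0.15. Of the 42 genes, 25 in control and 27 in sonKD had an interval wholly above 0 for the deepest against the shallowest depth bin. The share of all genes with such an interval is not set beside these counts, so they are not a result about the set.

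The summed level also differed between phase calls. Cells called S held 1.82% in control and 1.73% in sonKD, and cells called G2/M held 1.70% and 1.63%, which are log2 differences of -0.10 (-0.11 to -0.09) and -0.08 (-0.09 to -0.06). Only 40 control and 77 sonKD cells were called G1. They held 1.12% and 1.07%, and their median depth before thinning was 5063 and 5680 UMIs. By gene, 13 of 42 in control and 8 in sonKD had an interval wholly below 0 for G2/M against S, and 2 and 3 wholly above. Nolc1 (-0.25 in control and -0.20 in sonKD) and Nhp2 (-0.18 and -0.19) were among the former and Nop56 (0.26 and 0.17) and Ubtf (0.17 and 0.22) among the latter, all named after their values were seen. No share of all genes with such intervals is set beside the counts by phase, so they are not a result about the set.

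**Figure D5:**
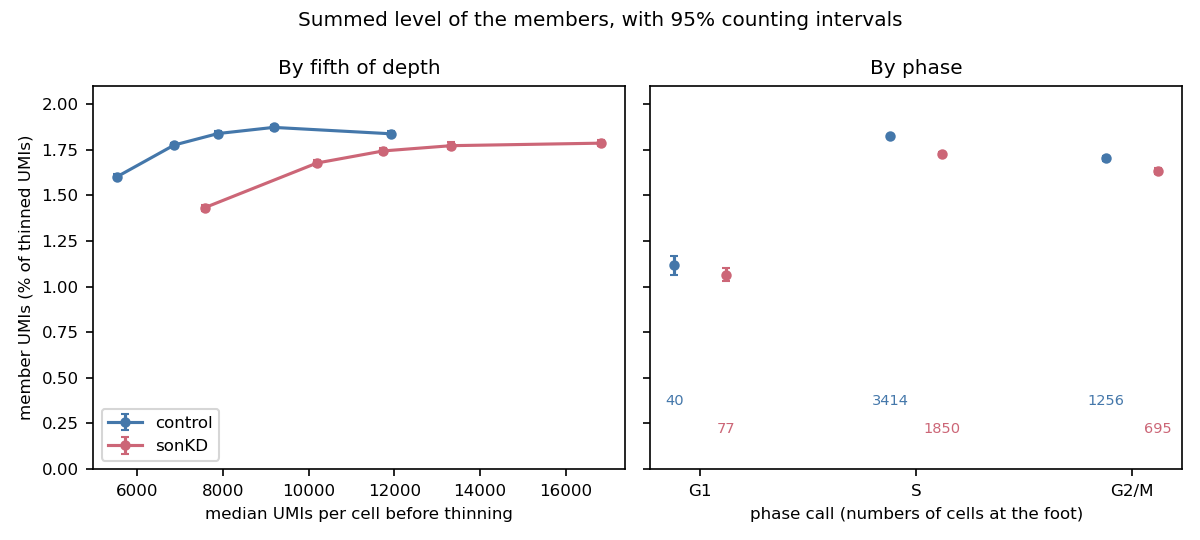
Summed UMIs of the 42 genes as a percentage of thinned UMIs, by depth bin (left, at the median UMIs per cell before thinning) and by phase call (right, with the number of cells at the foot); bars are 95% counting intervals. The shallowest depth bin is lowest in both libraries, at 1.60% in control and 1.43% in sonKD, and cells called G1 lie at 1.12% and 1.07%.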

How the data were processed

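Each deposited matrix holds whole, unscaled UMI counts by gene and barcode, produced by the authors in Cell Ranger 7.1.0, per the file headers. The build mm10 is named in the submitters' processing notes. How strand and intronic reads were counted, and on which annotation, is not given in the sources used here. All barcodes are listed, so cells were selected by the limits in the text. Scrublet in scanpy 1.11.5 called 3 control and 1 sonKD cells, 0.0603% and 0.0366%, which is no working call, so doublets were kept. An alternative left out the highest scores, 198 and 60 cells.

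Counts were summed per library and scaled to CPM, with a count under 3 set to 3 for a ratio. Intervals are exact: Poisson for a sum, binomial for a share, conditional binomial for a ratio. No test was possible with 1 sample per group. The calculation was tested on simulated data. TMM factors came from edgeR 4.0.16. Gene positions are from GENCODE M21 on GRCm38. Shared 3′ sequence was sought with blastn 2.17.0 over the last 500 bases, at 95% identity over at least 90 bases on the same strand. Phases came from scanpy's cell cycle scores on thinned cells.

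All 42 genes may be named. Per-library values with intervals were printed for those with the lowest and highest ratios and the highest levels, and of each further list for the genes farthest from the median of all genes. The genes and lists were chosen with earlier results of these data known. Alternatives covered the cell limits, doublets, scaling, minimums, fold, thinning depth and seed.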

Additional observations from a re-analysis of the deposited data

How the results depend on the processing

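No paired analysis was possible because each group held 1 sample, and for the same reason no replicate could be left out. Of 90 alternative values for the summary results 53 stayed within their tolerance, 37 moved beyond it and none of a called size changed sign. Scaling moved the median of all genes by 0.09 on the log2 scale with TMM factors, 0.12 with the median gene set to 0 and 0.07 without mitochondrial and ribosomal protein genes. In that order the summed log2 ratio was 0.017, 0.043 and -0.00088 in place of -0.07, and the median of the 42 genes was -0.0044, 0.021 and -0.023 in place of -0.09. Of the 42, 4, 4 and 4 were higher, and 3 were lower with the median gene set to 0. Of the 132 further genes 9, 10 and 4 were higher, and 12, 11 and 17 were lower. Of all genes 7.90%, 9.34% and 7.21% were higher and 7.55%, 5.99% and 8.97% lower, in the same order. The summed log2 ratio was -0.081 from 5000 UMIs per cell, -0.062 at 5% mitochondrial UMIs and -0.083 as a mean of CPM per cell. From 50 CPM, where fewer genes were counted, 3 of the 42 were lower. At a fold of 1.1, 17 were lower and 4 higher, and 50 and 11 of the further genes. The shares of all genes at that minimum and at that fold are not set beside these counts, so they are not a result about the set. The excess coefficient of variation was 15.2% in control and 17.0% in sonKD at 6000 thinned UMIs, 16.2% and 17.9% from 5000 UMIs per cell, and 14.8% and 14.9% at 5% mitochondrial UMIs. At that limit the G2/M against S difference was -0.065 and -0.059, and the difference by depth 0.128 and 0.149. With the highest doublet scores left out these were -0.068 and 0.219 in control. Without thinning, on the log scale, the mean r was 0.045 and 0.059. The cause of these moves was not tested.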

Other observations

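Barcodes over the mitochondrial limit entered no comparison. In them the 42 genes summed to 14726 CPM over 625 control barcodes and 14264 CPM over 1056 sonKD barcodes, below the cells of both libraries, and Ncl stood at 3376 and 3085 CPM. In droplets of 100 to 500 UMIs Ncl stood at 3261 and 2816 CPM, below its level in cells, while the sum of the 42 genes in control was at the level of the cells.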
